A study of Homo sapiens with 8 samples.

Results

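Both arms of the miR-9 hairpin, hsa-miR-9-5p and hsa-miR-9-3p, were followed through small RNA libraries of H1299 cells, an established human non-small cell lung carcinoma line derived from a lymph node that makes no p53. They were taken by name from the deposited tables and are 2 of the 945 miRNAs found in them. They were chosen by name with earlier results of these data known. In the untreated normalized counts, miR-9-3p was already known to be among the miRNAs lower in R273H. The untreated values of both arms are therefore described below without a test. Cells with an empty vector (EV, p53 null) and cells stably expressing mutant p53R273H from a CMV plasmid were left untreated or treated with etoposide, a topoisomerase II inhibitor that breaks DNA, for 24 h. Each of these 4 groups had 2 libraries. For the etoposide dose, the treatment label reads 10 µM and the growth label 10 mM. Colonies that resisted G418 gave rise to the R273H line, and the EV line carried its vector by infection and came from another laboratory, so the mutant protein and the history of the line cannot be told apart. The labels do not say whether the 2 libraries of a group came from separate cultures, while the paper calls them biological replicates. Apart from the exact binomial tests, which measure counting error, the p-values measure only the spread between these libraries. The model fits estimate that spread partly from all miRNAs tested. In bulk cells, fewer expressing cells and less RNA per cell cannot be told apart.

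A miRNA hairpin is cut by Drosha and Dicer into a duplex of a 5p and a 3p strand, and each strand can be loaded into an Argonaute protein, where bases 2 to 8 (the seed) select target mRNAs. miR-9 is best known from the developing brain. There the 5p arm represses REST, a silencer of neuronal genes, and the 3p arm (formerly miR-9*) represses the REST cofactor CoREST. In cancer cells the 5p arm is known to repress CDH1, which encodes E-cadherin.

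The mature sequences are shown because both arms were counted under their own names, 5′ to 3′ with the seed in capitals (RefSeq, 3 genes for each arm).
miR-9-5p: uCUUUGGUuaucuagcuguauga
miR-9-3p: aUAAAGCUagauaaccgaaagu
The seeds differ, so the arms read different target sites. Bases 6 to 17 of the 5p arm and bases 5 to 16 of the 3p arm are complementary without a gap, a stretch of 12 bases. None of the other mature miRNAs in the RefSeq table shared bases 2 to 8 or bases 2 to 7 with either arm, so no seed relative of miR-9 was found to set beside them.

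The 3 hairpins are shown because they carry the same arms, which stand in capitals.
MIR9-1: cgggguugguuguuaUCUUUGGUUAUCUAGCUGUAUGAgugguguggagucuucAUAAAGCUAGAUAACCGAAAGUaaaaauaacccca
MIR9-2: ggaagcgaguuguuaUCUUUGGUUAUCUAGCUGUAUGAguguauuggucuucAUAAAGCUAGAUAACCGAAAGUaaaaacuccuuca
MIR9-3: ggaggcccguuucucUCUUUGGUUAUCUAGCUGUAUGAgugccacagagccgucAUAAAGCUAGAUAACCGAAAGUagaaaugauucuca
By exact match of these RefSeq hairpins to GRCh37, MIR9-1 lies on the minus strand of chromosome 1 (chr1:156390133-156390221), although the lifted GENCODE annotation lists its MIR9-1 entry on the plus strand. It is in an intron of 78 of the 80 overlapping transcripts of the long non-coding RNA gene MIR9-1HG. MIR9-2 lies on the minus strand of chromosome 5 (chr5:87962671-87962757), with no miRNA entry of its own in that annotation, where 15 transcripts of LINC00461 have it in an exon and 18 in an intron. MIR9-3 lies on the plus strand of chromosome 15 (chr15:89911248-89911337), in an intron of 8 of the 11 overlapping transcripts of MIR9-3HG. The hairpins differ only outside the arms, with 16, 14 and 16 bases between them, so a read of either arm cannot be assigned to one gene. Neighbouring miRNA genes did not help to assign the reads. Of the single-gene miRNAs that the exact hairpin match placed within 1 Mb of a MIR9 gene, 2 were measured, and both were nearly absent. Genes that this match did not place were not considered. miR-765, near MIR9-1, had 2 reads in 1 library, and miR-3174, near MIR9-3, had 1 read in 1 library. MIR7-2 also lies 756083 bases from MIR9-3, but miR-7-5p, with 548 to 1830 reads a library, is made from other genes as well.

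The deposited values are read counts divided by a size factor per library, and dividing each by the smallest step of its library gave whole numbers for all values (within 0.1 reads), so the reads could be recovered. The libraries held 213007 to 536991 miRNA reads. miR-9-5p had 51 to 314 reads in a library and miR-9-3p 13 to 63, so counting error is not small for the 3p arm. An exact Poisson 95% interval around its lowest count, 13 reads in R273H untreated replicate 1, runs from 6.92 to 22.2 reads. Such intervals cover counting error alone, since copies made in PCR look like separate molecules. Both arms passed the filter on low values in each comparison. The cell-type label could be checked with miRNAs alone. The epithelial miR-200 family with miR-205-5p summed to 2 to 18 reads a library, 7 blood miRNAs to 8 to 25 reads, and the neuronal miR-124 arms to 0 to 3 reads. The miR-124 arms summed to 8.28 to 14.1 RPM (reads per 1000000 miRNA reads) in EV etoposide and to at most 2.46 in the other groups. The blood list ran from 30.4 to 117.4 RPM in EV etoposide and reached at most 54.1 in the other groups. The epithelial list ran from 3.95 to 44.3 RPM, highest in R273H untreated. The muscle list reached 20 reads (49.2 RPM) in 1 R273H untreated library and at most 5.92 RPM in the other groups, and liver miR-122-5p ran from 0 to 32.9 RPM, highest in EV etoposide. Of these lists, 2 of the 4 muscle miRNAs and 2 of the 7 blood miRNAs were not in the tables. The part of such cells in the results was not tested.

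To set all 8 libraries side by side, the recovered reads were scaled with TMM factors to CPM (counts per 1000000 scaled reads), and the following levels are TMM-scaled CPM. miR-9-5p had 531 and 622.4 in EV untreated, 672.7 and 1023 in EV etoposide, 146.3 and 201.2 in R273H untreated, and 242.2 and 314.4 in R273H etoposide. The 4 groups of the 5p arm did not overlap, with EV etoposide highest and R273H untreated lowest. miR-9-3p had 121.3 and 159.5 in EV untreated, 149.5 and 205.2 in EV etoposide, 37.3 and 55.6 in R273H untreated, and 60.1 and 54.4 in R273H etoposide. For the 3p arm each EV library was above each R273H library, while untreated and etoposide libraries of one line overlapped. How many of all miRNAs showed either order over the 8 libraries was not counted, so both orders are a description. By reads, miR-9-5p ranked between 62 and 72 among the miRNAs of an EV library and between 88 and 119 in R273H. miR-9-3p ranked between 102 and 142 in EV and between 172 and 203 in R273H.

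**Figure D1:**
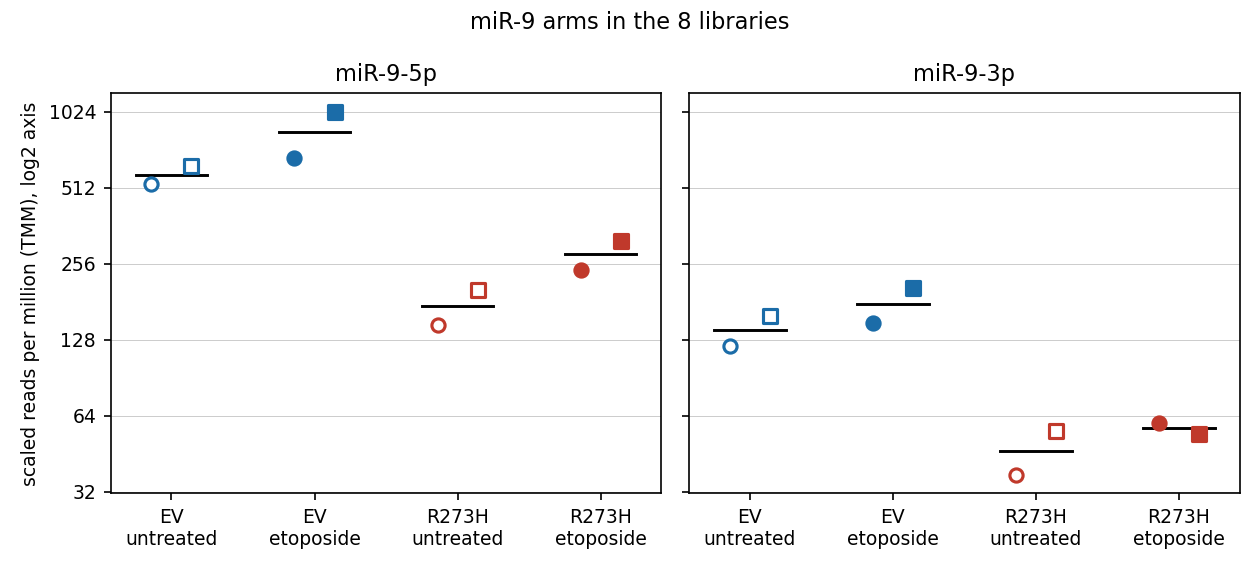
TMM-scaled CPM (log2 axis) of miR-9-5p (left) and miR-9-3p (right) in each library. Circles are replicate 1 and squares replicate 2, open symbols are untreated and filled ones etoposide, blue is EV and red R273H, and bars are group means. The 5p arm sits at 531 or more in EV and at 314.4 or less in R273H, and the 3p arm at 121.3 or more in EV and at 60.1 or less in R273H.

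In untreated cells, both arms were lower in R273H than in EV. In the authors' normalized counts of that table, miR-9-5p was 160.62 and 192.85 in EV against 52.33 and 67.55 in R273H. The means were 176.7 ± 22.8 and 59.9 ± 10.8 (SD, n = 2), and the difference of log2(normalized count + 1) was -1.55 (standard error 0.36). miR-9-3p was 36.7 and 49.4 in EV against 13.3 and 18.7 in R273H, a difference of -1.38 (log2, standard error 0.45). For each arm both R273H libraries lay below both EV libraries, as did those of 26.6% of the 304 miRNAs tested there. At an adjusted p-value under 0.05, limma called 20.4% of these 304 in either direction and 9.54% lower. With equal upper quartiles in place of the deposited scaling, the calls went from 33 higher and 29 lower to 9 higher and 36 lower, and the median log2 fold change of all miRNAs from 0.10 to -0.24. Both arms were lower on either scale. The arms were taken up with this comparison known, so these values are a description.

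The etoposide-treated libraries, which are not part of that comparison, were tested for the same difference. Untreated libraries entered only the test's estimate of spread and the scaling. Since the lines are the same, a lasting difference between the lines would also show in these treated libraries. Both arms were also chosen with earlier results of these data known. The p-values below are therefore not independent of that choice. In them miR-9-5p had 198 and 314 reads in EV against 137 and 185 in R273H, although the R273H libraries held 506683 and 348858 miRNA reads and the EV libraries 213007 and 362242. On the log2 scale this was -1.61 with a standard error of 0.34 (edgeR quasi-likelihood test on the recovered reads of all 8 libraries, adjusted p = 0.00016). miR-9-3p had 44 and 63 reads in EV against 34 and 32 in R273H, which the same edgeR fit put at -1.63 with a standard error of 0.42 (adjusted p = 0.0021). Of the 334 miRNAs tested, 22.5% passed at an adjusted p-value under 0.05, and both arms were among the 14.4% that were lower in R273H. Libraries of 26.0% of them did not overlap in that direction. The log2 fold change of miR-9-5p lay between -1.88 and -1.27 over the fits with 1 library removed, and its adjusted p-value stayed under 0.05. For miR-9-3p the adjusted p-value rose to 0.051 without R273H etoposide replicate 1 and to 0.084 without replicate 2, with log2 fold changes of -1.69 and -1.56.

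**Figure D2:**
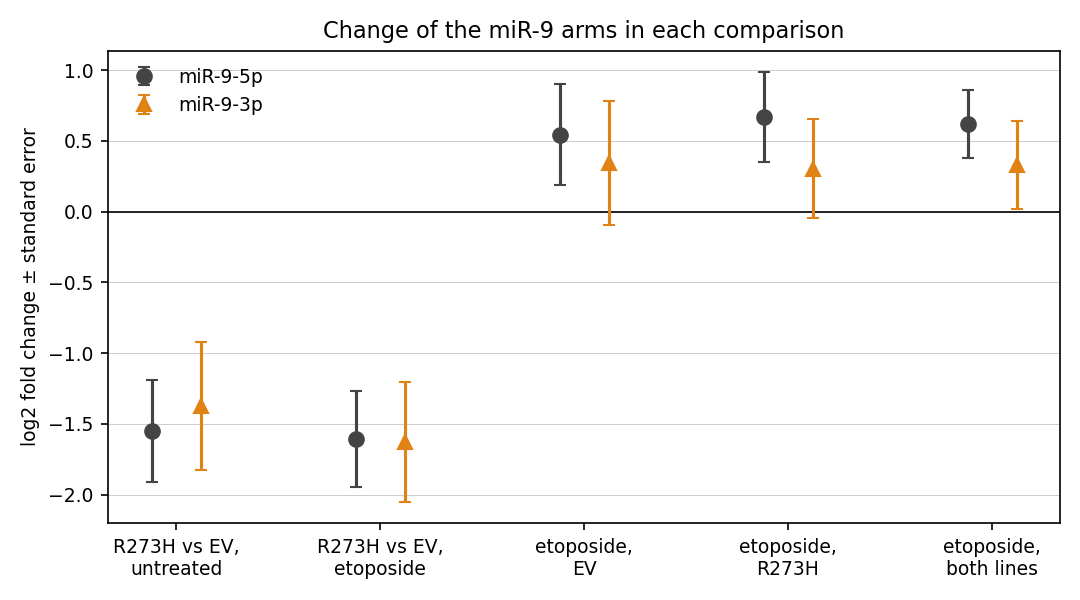
Log2 fold change with its standard error for miR-9-5p (circles) and miR-9-3p (triangles). Untreated lines and etoposide within a line come from limma on deposited normalized counts, and lines under etoposide and etoposide over both lines from edgeR on recovered reads. Both line comparisons lie between -1.38 and -1.63, and the etoposide changes between 0.30 and 0.67.

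Etoposide was compared with no treatment within each line, in that line's own table. In EV, miR-9-5p had 149.6 and 183.2 normalized counts untreated and 188.8 and 309.0 with etoposide, so the groups did not overlap, though by little. The change was 0.54 on the log2 scale, with a standard error of 0.36 (limma, unadjusted p = 0.13, adjusted p = 0.82). miR-9-3p had 34.2 and 46.9 untreated and 42.0 and 62.0 with etoposide, which overlap. The difference was 0.34 ± 0.44 (log2, standard error, limma adjusted p = 0.93). In R273H, miR-9-5p had 67.81 and 89.75 untreated and 112.95 and 137.35 with etoposide, again without overlap. Its change was 0.67 ± 0.32 (log2, standard error, limma unadjusted p = 0.055, adjusted p = 0.49). miR-9-3p had 17.3 and 24.8 untreated and 28.0 and 23.8 with etoposide, which overlap. The change was 0.30 ± 0.35 (log2, standard error, limma adjusted p = 0.84). No arm passed the test in either line.

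Few miRNAs did so. At an adjusted p-value under 0.05 limma called 0.676% of 296 miRNAs in EV and 0.0% of 341 in R273H, where 31 had an unadjusted p-value under 0.05, edgeR called 0 and DESeq2 called 1. Libraries that did not overlap, with etoposide higher, were found for 18.6% of the miRNAs in EV and 20.5% in R273H, so the separation of miR-9-5p in each line is not rare. The untreated libraries of these comparisons are also those of the comparison of untreated lines, which was known when the arms were chosen. Untreated values low in R273H or high in EV by counting error would raise the etoposide change in R273H and lower it in EV. The etoposide p-values, also those over both lines below, are therefore not independent of that choice.

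A fit over both lines was added after these values were seen. Averaged over EV and R273H, the log2 fold change with etoposide was 0.62 for miR-9-5p (standard error 0.24, unadjusted p = 0.011, adjusted p = 0.18, edgeR) and 0.33 for miR-9-3p (standard error 0.31, adjusted p = 0.67). Of the 334 miRNAs, 2.99% passed at an adjusted p-value under 0.05, and neither arm did. The difference between the etoposide changes of R273H and EV was 0.12 for miR-9-5p (standard error 0.48) and -0.07 for miR-9-3p (standard error 0.63), with an adjusted p of 1.00 for each (edgeR interaction). The interaction called 0 of the 334 miRNAs, with 12 at an unadjusted p-value under 0.05 in edgeR and, with DESeq2, 0 and 5.

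The size of the etoposide change depended on the scale. In RPM, the 2 arms together took 530.7 and 608.4 in EV untreated, 1136 and 1041 in EV etoposide, 141.6 and 238.5 in R273H untreated, and 337.5 and 622.0 in R273H etoposide. These are 1.91-fold in EV and 2.49-fold in R273H, against 1.42-fold and 1.53-fold on the deposited normalized counts. On the RPM scale the median log2 fold change of all miRNAs tested was also 0.38 in EV and 0.72 in R273H, against -0.03 and 0.02 on the deposited scale. Relative to those medians, miR-9-5p was higher by 0.59 and 0.58 (log2) in EV and by 0.66 and 0.65 in R273H on the 2 scales. For both arms together in RPM, averaged over the lines, the difference was 1.13 (log2), higher in 2 of 2 lines, and 0.56 with TMM scaling. An exact two-sided permutation test within lines gave p = 0.0556 on each scale, which is the smallest that its 36 arrangements allow.

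In RPM, the R273H replicates of the 5p arm stood further apart than counting error. miR-9-5p took 270.4 and 530.3 RPM in the etoposide libraries (exact binomial test of equal shares, p = 1.90e-09), and 112.9 and 186.9 RPM in R273H untreated (same exact test, p = 0.0057). For miR-9-3p no such gap was detectable in R273H (exact binomial p = 0.21 with etoposide and 0.12 untreated). On the TMM scale above, the R273H etoposide libraries had 242.2 and 314.4. In the EV groups the 5p arm took 432.0 and 484.4 RPM untreated and 929.5 and 866.8 with etoposide. In RPM these pairs showed no detectable difference beyond counting error (exact binomial p = 0.30 and 0.44). On the TMM scale, however, the EV etoposide libraries had 672.7 and 1023. Which line had the wider etoposide pair thus depended on the scale.

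The arm ratio needs no scaling between libraries. The 5p arm was the more frequent in each library, with 4.38 and 3.90 reads for each 3p read in EV untreated, 4.50 and 4.98 in EV etoposide, 3.92 and 3.62 in R273H untreated, and 4.03 and 5.78 in R273H etoposide. The 3p arm made up 14.7% (95% Wilson interval 10.6 to 20.1) to 21.6% (14.6 to 30.8) of the miR-9 reads of a library, and the intervals of these extremes overlap. Between the lines under etoposide, the mean log2 ratio was 2.23 in EV and 2.25 in R273H, a difference of 0.02 (exact two-sided permutation p = 1, smallest possible 0.333). The untreated means were 2.03 and 1.88. The levels of both arms thus differed between the lines far more than the ratio of one to the other.

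**Figure D3:**
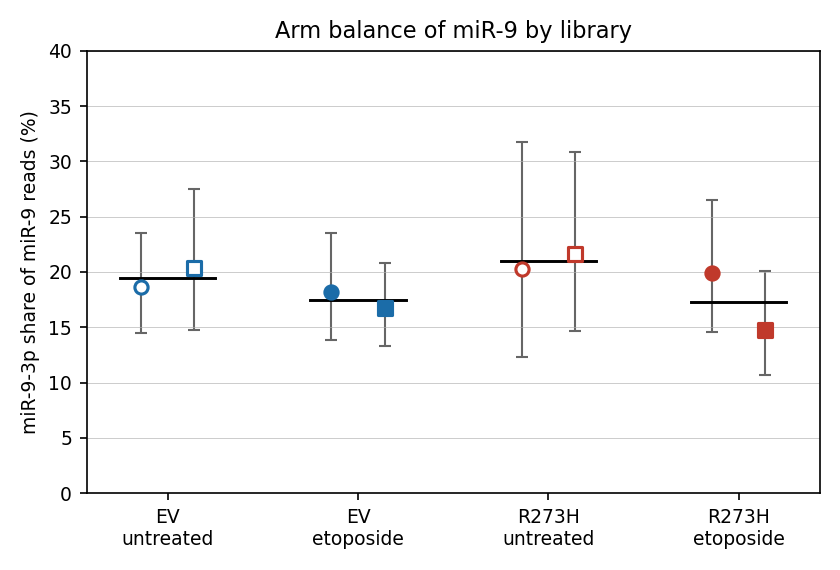
Share of miR-9-3p among the reads of both arms (%) in each library, with 95% Wilson intervals and bars for group means. Symbols are circles for replicate 1, squares for replicate 2, open for untreated, filled for etoposide, blue for EV and red for R273H. Shares run from 14.7% to 21.6%, and their intervals overlap.

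With etoposide the log2 ratio of 5p to 3p was higher by 0.20 in EV and by 0.37 in R273H, or by 0.29 on average, higher in 2 of 2 lines. The exact two-sided permutation test within lines gave p = 0.0556, the smallest possible, so this design could not reach 0.05. Within 1 line, 2 libraries against 2 cannot go below an exact permutation p of 0.333. The difference fell to 0.16 without R273H etoposide replicate 2, which had the highest ratio of the 8 libraries. A shift of this size is near what other miRNAs showed. Of 56 miRNAs with a mean of at least 10 reads for each arm, the median absolute change with etoposide was 0.30, and 29 changed by more than miR-9.

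Over the same 56 miRNAs, the 5p arm was the more frequent in 37. The mean log2 ratio of miR-9 over the 8 libraries was 2.10, against a median of 3.47 in absolute value, so the less frequent arm of miR-9 kept a larger share of the reads than that of most. The highest and lowest log2 ratios of miR-9 were 0.68 apart, against a median of 1.88 over the 56, and 0 of the others had a smaller range. The range also depends on read number and was not tested.

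**Figure D4:**
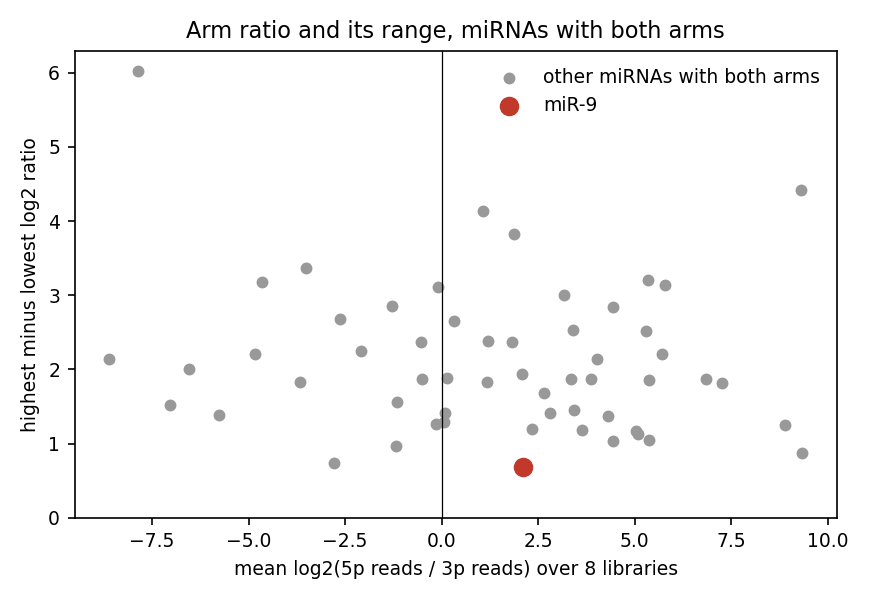
Mean log2 ratio of 5p to 3p reads over the 8 libraries (horizontal) and highest minus lowest log2 ratio (vertical) for 56 miRNAs with both arms at a mean of 10 or more reads. miR-9 (red) stands at 2.10 with a range of 0.68, the lowest point of the plot.

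Because miR-9 is best known from the developing brain, 16 further miRNAs known from the nervous system were listed, not all of them restricted to neurons. Of these, 14 were in the tables and 8 had a mean of at least 10 reads. The list did not move one way. Under etoposide, 11 of them were tested between the lines (median log2 fold change -0.09, against 0.05 for all 334 miRNAs), and 3 were lower and 1 higher in R273H at an adjusted p-value under 0.05 (edgeR), where 14.4% of all miRNAs tested were lower and 8.08% higher. The lower ones were miR-138-5p, with 142 and 86 reads in EV against 70 and 81 in R273H (-1.54 on the log2 scale, adjusted p = 0.00053), miR-218-5p (-1.38, adjusted p = 0.0018) and miR-125b-5p (-1.31, adjusted p = 0.0040). The higher one was miR-128-3p (0.88, adjusted p = 0.042), with 208 and 376 reads in EV against 1248 and 801 in R273H. For the remaining 4 with a mean of at least 10 reads, miR-137, miR-7-5p, miR-132-3p and miR-212-3p, these log2 fold changes were between -0.09 and 0.09. Between untreated lines, limma called the same 3 lower and 1 higher of 10 tested, against 29 lower and 33 higher of all 304. The higher one there was miR-132-3p (1.45, limma adjusted p = 0.032). miR-128-3p did not pass there (0.71, limma adjusted p = 0.092). With etoposide, none of the 10 tested in EV or the 11 tested in R273H passed in limma. miR-124-3p, a defining miRNA of neurons, had at most 3 reads in a library, against 51 to 314 for miR-9-5p.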

How the data were processed

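Small RNA fractions of 8 libraries were sequenced on an Ion PGM instrument. Per the paper's methods, the authors trimmed reads at the 3′ end (quality at least 20) and kept those of 17 to 35 bases. They mapped these with SHRiMP (miRBase 20, tRNA, rRNA, adapters) and searched GRCh37/hg19 for the remainder with Novoalign. Each miRNA's count was adjusted with reads found at its known loci. How reads with shifted ends (isomiRs) or several matches were treated is not given in the sources used here. The deposited signal is a count divided by a DESeq size factor per library, in 3 separately normalized tables. The authors' tables of fold changes and p-values were not used.

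Reads were recovered from the steps of the deposited values (100% whole within 0.1 reads), and reads of untreated libraries differed between tables for 0 features. A miRNA missing from every table that holds a library was set to 0 reads in that library, where its true count is unknown. Comparisons within a table used limma-trend (version 3.58.1 in R 4.3.3) on log2(normalized count + 1) at a mean of at least 3. Comparisons over all libraries used edgeR 4.0.16 (TMM, quasi-likelihood) at a mean of at least 3 reads, with standard errors taken from the log2 fold change and its F statistic. DESeq2 1.42.0 was an alternative. P-values are two-sided with Benjamini-Hochberg adjustment over all miRNAs tested. Fold changes of low miRNAs are understated by the added 1. Arm ratios are of reads, and their log2 values of reads + 0.5. The tests were checked on simulated data. Both arms and all lists were chosen with earlier results of these data known. Also named are the 3 miRNAs most alike to each arm by Pearson's r, neighbours within 1 Mb, seed relatives, and the list of miRNAs known from the nervous system. Of 945 miRNAs, 825 matched RefSeq (GRCh38.p14) by name. Positions were matched to GRCh37 and annotated with GENCODE 44 lifted to it. Other steps ran in Python 3.11.15 with pandas 2.3.3, scipy 1.17.1 and numpy 2.4.6.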

Additional observations from a re-analysis of the deposited data

How the results depend on the processing

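All fits below kept the direction of the line and etoposide changes. For untreated R273H against EV, equal upper quartiles gave log2 fold changes of -1.89 for miR-9-5p and -1.71 for miR-9-3p. Leaving out 1 library gave -1.73 to -1.37 and -1.60 to -1.15. For lines under etoposide, leaving out 1 library gave -1.88 to -1.27 for miR-9-5p and -1.84 to -1.38 for miR-9-3p, whose adjusted p-value over all alternatives ran from 0.0010 to 0.084. The change with etoposide, without 1 library, lay between 0.19 and 0.90 (5p) and 0.07 and 0.62 (3p) in EV, and between 0.47 and 0.87 and 0.06 and 0.55 in R273H. Averaged over lines it lay between 0.45 and 0.75 and 0.20 and 0.49. The difference between the etoposide changes had no settled direction. It ran from -0.15 to 0.45 for miR-9-5p and from -0.32 to 0.25 for miR-9-3p without 1 library, and was 0.06 for miR-9-3p without a filter. Both arms together changed by 0.91 to 1.35 and the arm ratio by 0.16 to 0.42 without 1 library.

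The labels do not say whether replicate numbers pair the libraries. The differences between replicates 1 and 2 correlated across miRNAs between the groups at 0.0374 for untreated and etoposide EV. The values were -0.0825 for R273H and -0.0269 for the untreated lines. Such correlations cannot show whether libraries were prepared in pairs, and the EV and R273H etoposide groups were not compared in this way. The replicate block gave 0.54 and 0.34 in EV, 0.67 and 0.30 in R273H, -1.55 and -1.38 between untreated lines, and -1.59 and -1.60 under etoposide for 5p and 3p, and kept both arms under 0.05 between lines under etoposide. Between untreated lines both arms are described and not tested here. With the block, the miRNAs passing an adjusted p of 0.05 between untreated lines went from 62 to 0 in limma. Those at an unadjusted p under 0.05 went from 99 to 101. The number at an adjusted p under 0.05 was 39 without the limma trend and 34 with DESeq2. Under etoposide it was 75, and 47 with DESeq2. For etoposide it was 2 in EV, and 1 without the trend, with edgeR or with DESeq2. In R273H it was 0, and 2 at a mean of at least 10 or with equal upper quartiles and 1 with DESeq2. Averaged over lines it was 10 (3 higher and 7 lower, or 5 and 6 with DESeq2 size factors), and 6 with a filter at 10 reads, 3 with DESeq2 or limma and 1 with the block. Without 1 library these numbers ran from 0 to 51, 23 to 77, 0 to 1, 0 to 9 and 3 to 17, and for the interaction from 0 to 1. The causes were not tested. By construction, stricter filters test fewer miRNAs. With 13 to 63 reads a library, small changes of miR-9-3p were not detectable at this depth. The fits over both lines and the deposited scale for both arms were added after the data were seen.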

Other observations

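The miRNAs whose levels followed the arms most closely over the 8 libraries (Pearson's r of log2 TMM-scaled CPM, among 237 miRNAs with a mean of at least 10 reads) were, for miR-9-5p, miR-574-5p (r = 0.98), miR-9-3p (0.98) and miR-193a-3p (0.97). For miR-9-3p they were miR-342-3p (0.98), miR-193a-3p (0.98) and miR-9-5p (0.98). miR-193a-3p stood near both arms, with 249.5 and 267.5 TMM-scaled CPM in EV untreated, 353.4 and 351.7 in EV etoposide, 100.4 and 153.6 in R273H untreated, and 146.7 and 151.3 in R273H etoposide. miR-574-5p went from 421.2 and 622.4 in EV untreated to 209.5 and 248.9 in R273H untreated. The points share their lines, treatments and scaling, and r within a line was not computed, so these values are a description.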
